A study of Mus musculus with 32 samples.

Results

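Expression of 10 genes of the unfolded protein response and its surroundings was followed across 3 RNA-seq experiments on mouse spinal cord: Sec61a2, Hspa5, Ddit3, Atf4, Xbp1, Atf6, Ern1, Eif2ak3, Herpud1 and Trib3. The genes were found by matching the Ensembl identifiers of the deposited tables to these symbols, and all 10 passed the filter on low counts in every table, among 16508 genes tested in the sorted microglia, 18669 in the microglia compared by age and 17702 in the spinal cord. The list was drawn up with results of these data known. Sec61a2 is among the 32 genes, 0.171% of those tested, whose change with age differed between LAG-3 genotypes, so its values in that experiment are given as a description without a test. That choice was close to the threshold, and the interaction of Sec61a2 stayed within it in 3 of the 12 fits that each omitted 1 library. The other 9 are standard members of the pathway, and their tests used all genes of each table.

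The study asked what LAG-3, an inhibitory immune receptor, does in microglia of SOD1G93A mice, which carry a high-copy human SOD1 transgene with the G93A change and develop motor neuron disease. The first experiment held CD11b+/CD45int microglia of the lumbar cord from non-transgenic WT littermates (n = 4, age not given in the sources used here), and 2 fractions sorted from P140 SOD1G93A mice with an intact Lag3 gene, namely LAG-3-low (n = 5) and LAG-3-high (n = 5). The second held CD11b+/CD45int microglia, not divided by LAG-3, at P120 and P140 (n = 3 for each of 4 groups). All of these mice carried the transgene, either with the gene intact (SOD1G93A/LAG-3+/+) or deleted (SOD1G93A/LAG-3-/-). The third held whole lumbar cord at P140 of the same pair of genotypes (n = 3 each), again with the transgene in both. The LAG-3-/- line is a germline deletion, so LAG-3 was absent from all cells and not from microglia alone. For the cord the study counts 3 mice per genotype. For the microglia the sources used here do not say whether a library is 1 animal, or whether the fractions low and high in LAG-3 came from the same animals, so p-values there measure only the spread between these samples, which may be technical.

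The unfolded protein response is the set of pathways by which cells answer misfolded protein in the endoplasmic reticulum (ER). Its sensors sit in the ER membrane: IRE1 (Ern1) splices Xbp1 mRNA, PERK (Eif2ak3) phosphorylates eIF2alpha and so favours translation of ATF4, and ATF6 is cut in the Golgi to release a transcription factor. ATF4 drives Ddit3, which encodes CHOP, and together they drive Trib3, a pseudokinase, while XBP1 and ATF6 act on chaperones such as Hspa5 (BiP) and on genes of ER-associated degradation such as Herpud1. Sec61a2 encodes an alternative alpha subunit of the Sec61 channel, through which proteins enter the ER, and Sec61a1 encodes its more widely expressed paralogue. Splicing of Xbp1, phosphorylation and cleavage cannot be read from gene-level counts, so the values below are mRNA levels only.

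In GRCm39 coordinates the 10 protein-coding genes lie at chr2:5874426-5900243 (Sec61a2, minus strand), chr2:34661982-34668880 (Hspa5, plus), chr10:127124268-127132163 (Ddit3, plus), chr15:80139372-80141745 (Atf4, plus), chr11:5470606-5483027 (Xbp1, plus), chr1:170532026-170696208 (Atf6, minus), chr11:106283818-106378686 (Ern1, minus), chr6:70821461-70882235 (Eif2ak3, plus), chr8:95113022-95123141 (Herpud1, plus) and chr2:152179337-152191958 (Trib3, minus). Ddit3, Hspa5, Sec61a2 and Xbp1 each overlap a neighbouring gene whose transcripts share sequence with theirs, and reads from the shared part could have been assigned to either gene. Of the 31-base words in the annotated transcripts of Ddit3, 75.3% also occurred in transcripts of other genes, mostly of Mars1. The share was 38.9% for Hspa5 with Rabepk, 29.4% for Sec61a2 with Nudt5 and 20.7% for Xbp1 with Ccdc117, and it was at most 6.22% for each of the other 6 genes. A second Ensembl entry named Ddit3, a short one inside the main gene, had 0 counts in all tables.

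Sites for the response are part of the promoters of Hspa5 and Herpud1, and they are shown because these are the chaperone and degradation genes whose levels are followed below. The ER stress response element (ERSE: CCAAT, 9 free bases, CCACG), the related ERSE-II (ATTGG, 1 free base, CCACG) and a site of the kind ATF4 binds (TTGCATCA) were searched on both strands of the 250 bases before the RefSeq start (GRCm38.p6). Capitals mark the matches, and 15 bases are given on either side.
Hspa5 (chr2:34772010-34772058, plus strand): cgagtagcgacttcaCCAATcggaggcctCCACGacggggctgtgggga
Herpud1 (chr8:94386302-94386402, plus strand): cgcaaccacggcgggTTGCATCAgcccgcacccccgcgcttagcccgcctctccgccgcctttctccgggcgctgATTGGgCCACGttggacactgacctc
The Hspa5 match lay 65 to 47 bases before the start, and this element was found in 0.113% of 32851 promoters. Herpud1 had the ATF4-type site at 112 to 105 bases and the ERSE-II at 52 to 42 bases before its start, which were found in 0.791% and 0.0304% of promoters. These letters were not found in the same window of Sec61a2, Ddit3, Atf4, Xbp1, Ern1, Eif2ak3 or Trib3. Atf6 was not matched.

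Libraries held 9403475 to 22850586 estimated counts in the sorted microglia, 23981406 to 49512632 in the microglia by age and 19430102 to 26994524 in the cord. Lag3 followed the labels of sort and genotype in every library: it was 0.508 to 9.99 CPM (counts scaled by library size) in WT microglia, 34.8 to 57.8 in those sorted as LAG-3-low and 146 to 195 in those sorted as LAG-3-high, at most 0.462 CPM in LAG-3-/- microglia against 24.5 to 62.9 in LAG-3+/+, and 5.5 to 5.72 CPM in LAG-3-/- cord against 43.4 to 74.5 in LAG-3+/+. In LAG-3+/+ microglia Lag3 was 53.4 to 62.9 CPM at P120 and lower, at 24.5 to 28.1 CPM, at P140. Non-overlap in that direction held for 25.4% of all genes. All 9 microglial markers measured were detected in every library, but the summed level of 10 neutrophil markers (S100a8, S100a9 and others) ranged from 5993 to 70459 CPM in WT, from 22724 to 66146 CPM in LAG-3-low and only from 1.21 to 7.26 CPM in LAG-3-high libraries. Libraries also differed in how well long transcripts were covered. The median deviation of genes with transcripts of 4 kb or more, minus that of genes under 1.5 kb, was -1.08 to -0.59 (log2) in the 3 P140 LAG-3+/+ libraries and 0.38 to 0.57 in the 3 P120 LAG-3+/+ libraries. It was -0.52 in P140 LAG-3-/- replicate 1 against 0.39 and 0.42 in its group, -1.04 and -1.31 in WT replicates 1 and 4 against 0.14 and -0.18 in the other WT libraries, and -0.59 to -0.19 in the LAG-3-/- cord against 0.29 to 0.42 in the LAG-3+/+ cord. Groups without overlap in this measure were P140 and P120 LAG-3+/+, P140 LAG-3+/+ and P140 LAG-3-/-, WT and both SOD1G93A fractions, and the cord genotypes, so changes of the members are also given with offsets that remove a smooth trend in transcript length and GC content, as the distance from the median change of all genes unless stated otherwise.

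Per kilobase of transcript, Hspa5 was the most abundant of the 10 genes in all 9 groups. In the P120 LAG-3+/+ microglia it stood at a mean of 669 CPM per kb, followed by Xbp1 at 143 and Herpud1 at 105. The other transcription factors came next, with Atf4 at 22.3 and Ddit3 at 17.1 CPM per kb, and Sec61a2 followed at 11.4. The 3 sensors were low, at 8.09 for Eif2ak3, 7.29 for Atf6 and 2.77 for Ern1, and Trib3 was lowest at 1.59 CPM per kb. In the LAG-3+/+ cord the order was the same except that Atf4, at 49.7 CPM per kb, was second to Hspa5 at 112, and that Herpud1 at 26.9, Ddit3 at 25.8 and Xbp1 at 25.3 lay close together. Within the P120 LAG-3+/+ group the libraries of Atf4 and Ddit3 overlapped per kilobase, as did those of Eif2ak3 and Atf6. In whole cord, fewer cells of a type and less RNA per cell cannot be told apart.

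Sec61a2 was higher at P140 than at P120 where Lag3 was intact and lower where it was deleted, which is the pattern for which it was chosen. In LAG-3+/+ microglia it was 18.6, 31.1 and 33.3 CPM in replicates 1 to 3 at P120 and 75.7, 128 and 80.4 CPM at P140. In LAG-3-/- microglia it was 43.6, 48.3 and 44.4 CPM at P120 and 34.3, 33.1 and 34.6 CPM at P140. All 3 P140 LAG-3+/+ libraries lay above the other 9, and the LAG-3-/- groups were the tightest, with standard deviations of 2.51 and 0.791 CPM against 7.90 and 28.9 CPM in LAG-3+/+. At P120 the mean was 45.4 CPM in LAG-3-/- and 27.7 CPM in LAG-3+/+. Neutrophil markers summed to 1752 to 2548 CPM in the P120 LAG-3+/+ libraries and at most 3.16 CPM in the P120 LAG-3-/- libraries. Their part in the difference was not tested. The fitted log2 changes were 1.77 from P120 to P140 in LAG-3+/+, -0.42 in LAG-3-/-, and -2.19 for the difference between these. With the length and GC offsets the distance of the LAG-3+/+ change from the median of all genes went from 1.99 to 1.74 and that of the interaction from -2.37 to -2.28. The highest library, replicate 2 of P140 LAG-3+/+, set part of the size, since the LAG-3+/+ change was 1.49 without it.

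The paralogue Sec61a1 did not share this course. It was 229.5, 282 and 256 CPM in P120 and 211, 123 and 209 CPM in P140 LAG-3+/+ microglia, so that the later libraries were all lower, as held for 25.4% of all genes. The log2 change of -0.50 ± 0.21 (SE, n = 3 per group) missed the threshold (edgeR, Benjamini-Hochberg adjusted p = 0.126; 0.0962 without P140 LAG-3+/+ replicate 1). Sec61a1 has a median transcript length of 2.52 kb, and all genes of 2.5 to 4 kb had a median change of -0.53 in this comparison. In LAG-3-/- Sec61a1 was 201, 267 and 218 CPM at P120 and 283, 266 and 253 CPM at P140. Nudt5, the neighbour that shares sequence with Sec61a2, averaged 45.5 CPM at P120 and 58.9 CPM at P140 in LAG-3+/+ and 34.3 and 46.4 CPM in LAG-3-/-, and its interaction was 0.06 ± 0.32 (edgeR adjusted p = 0.965). The smaller channel subunit Sec61b averaged 34.4 CPM at P120 and 82.2 CPM at P140 in LAG-3+/+ and rose with a log2 change of 1.26 ± 0.34 (edgeR adjusted p = 0.0257). In LAG-3-/- it averaged 29.3 and 59.5 CPM. It was named after its values were seen.

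**Figure D1:**
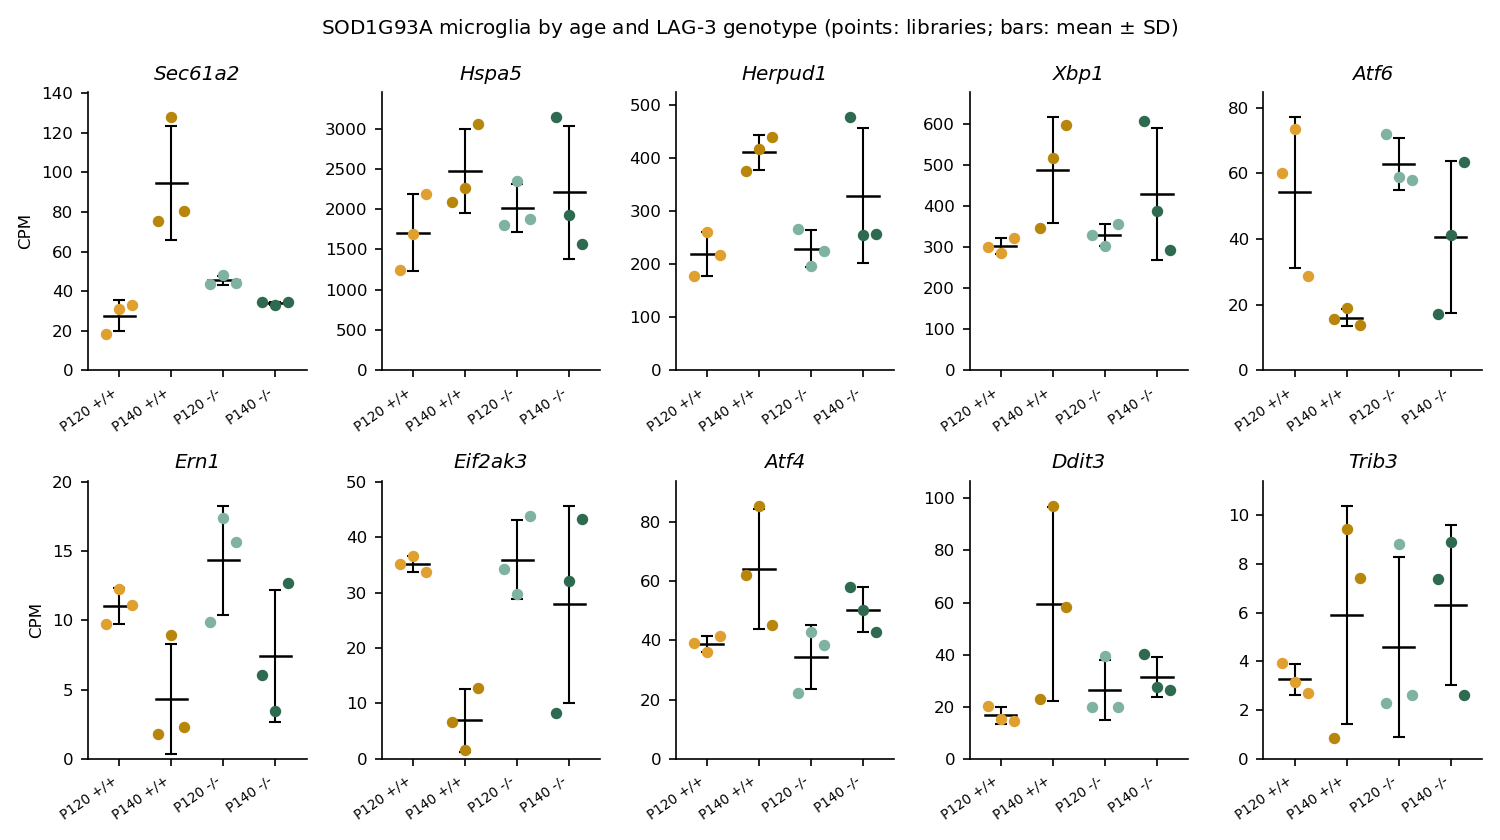
Level of each of the 10 genes in CPM (vertical axis, from 0, a scale of its own for each gene) in the 12 libraries of SOD1G93A microglia by age and LAG-3 genotype. Points are libraries in order of replicate, the horizontal line is the mean and the bar is 1 SD. For Sec61a2 the 3 P140 LAG-3+/+ libraries, at 75.7 to 128 CPM, lie above all others, and for Atf6 and Eif2ak3 they lie below all P120 libraries.

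Of the other 9 genes, 5 passed an adjusted p of 0.1 between P120 and P140 in LAG-3+/+ microglia, 3 higher and 2 lower, where 27.4% of all genes passed, 11.9% higher and 15.5% lower. The effectors and transcription factors were on the higher side, where the groups did not overlap for 16.8% of all genes. Herpud1, which helps to clear misfolded ER proteins, was 178, 262 and 217 CPM at P120 and 376, 417 and 441 CPM at P140, and the groups did not overlap. Its log2 change was 0.91 ± 0.26 (edgeR adjusted p = 0.0317), and without P120 LAG-3+/+ replicate 1 the adjusted p was 0.121. Hspa5 was 1243, 1686 and 2192 CPM at P120 and 2086, 2263 and 3062 CPM at P140. Those groups overlapped, and the change of 0.53 ± 0.29 did not pass (edgeR adjusted p = 0.216, and 0.0738 with the length and GC offsets). The latter test is against 0, while the offsets moved the median of all genes to 0.37. Rabepk, which shares sequence with Hspa5, averaged 10.5 CPM at P120 and 32.3 CPM at P140 and rose (1.62 ± 0.54, edgeR adjusted p = 0.0581).

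Ddit3, the gene of the stress factor CHOP, was 20.4, 15.4 and 14.4 CPM at P120 and 22.9, 97.1 and 58.1 CPM at P140. Every P140 library was above every P120 library, as held for 16.8% of all genes, but replicate 1 by little. The log2 change was 1.83 ± 0.48 (edgeR adjusted p = 0.0242). Mars1, with which Ddit3 shares most of its sequence, averaged 104 CPM at P120 and 117 CPM at P140 (log2 change 0.16 ± 0.23, edgeR adjusted p = 0.674). Xbp1 was 300.1, 285 and 322 CPM at P120 and 345, 517 and 597 CPM at P140. Its change of 0.69 ± 0.26 stood just within the threshold (edgeR adjusted p = 0.0931) and left it, at 0.1 or above, in 9 of the 12 fits that each omitted 1 library. Atf4 was 38.95, 35.9 and 41.3 CPM at P120 and 62.1, 85.3 and 45.0 CPM at P140, without overlap, and just missed (log2 change 0.73 ± 0.30, edgeR adjusted p = 0.111). It passed without P140 LAG-3+/+ replicate 3 or P120 LAG-3-/- replicate 1 (edgeR adjusted p = 0.0763 and 0.0907). Trib3 was 3.93, 3.17 and 2.69 CPM at P120 and 0.872, 9.44 and 7.42 CPM at P140, with the lowest library of the 6 in the later group (log2 change 0.86 ± 0.86, edgeR adjusted p = 0.53).

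The sensors were on the lower side. Atf6 was 60.2, 73.4 and 28.9 CPM at P120 and 15.5, 18.9 and 13.8 CPM at P140 in LAG-3+/+ (log2 change -1.75 ± 0.45, edgeR adjusted p = 0.0221). Eif2ak3 was 35.2, 36.6 and 33.7 CPM at P120 and 6.60, 1.54 and 12.8 CPM at P140 (-2.33 ± 0.69, edgeR adjusted p = 0.0388). Ern1 was 9.73, 12.3 and 11.1 CPM at P120 and 1.83, 8.93 and 2.31 CPM at P140, and did not pass (-1.35 ± 0.66, edgeR adjusted p = 0.181). P140 replicate 2 decided this, since without it the change was -2.42 and passed (edgeR adjusted p = 0.0353). None of these 3 pairs of groups overlapped, as held for 25.4% of all genes in the lower and 16.8% in the higher direction. The sensors have the longest transcripts of the 10 genes, with medians of 7.43 kb (Atf6), 4.35 kb (Eif2ak3) and 3.99 kb (Ern1) against 0.975 kb (Ddit3) to 2.55 kb (Hspa5).

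Over all genes the median log2 change in this comparison was 0.17 for transcripts under 1.5 kb, 0.33 at 1.5 to 2.5 kb, -0.53 at 2.5 to 4 kb and -1.24 at 4 kb or more. With the length and GC offsets the calls of both sensors were lost (edgeR adjusted p = 0.851 for Atf6 and 0.288 for Eif2ak3). The offsets moved the median of all genes from -0.22 to 0.37, and measured from it Atf6 went from -1.53 to -0.49, Eif2ak3 from -2.11 to -1.29 and Ern1 from -1.13 to -0.26. Ddit3 went from 2.05 to 1.66, Herpud1 from 1.13 to 0.62, Xbp1 from 0.90 to 0.39 and Hspa5 from 0.75 to 0.57, and the calls of Ddit3, Herpud1 and Xbp1 were kept (edgeR adjusted p = 0.0177, 0.0353 and 0.0863). These tests compare with 0 and not with the moved median. Over all genes, 2219 passed as higher and 2899 as lower without the offsets, and 3416 and 1150 with them. Border macrophage markers summed to 2.53 to 20.8 CPM at P120 and 119 to 143 CPM at P140 in LAG-3+/+. B and plasma cell markers went from 267 to 309 CPM to 514 to 564 CPM and microglial markers from 30316 to 33401 CPM to 40976 to 49133 CPM, also without overlap. The part of RNA quality or of such cells in these changes was not tested.

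**Figure D2:**
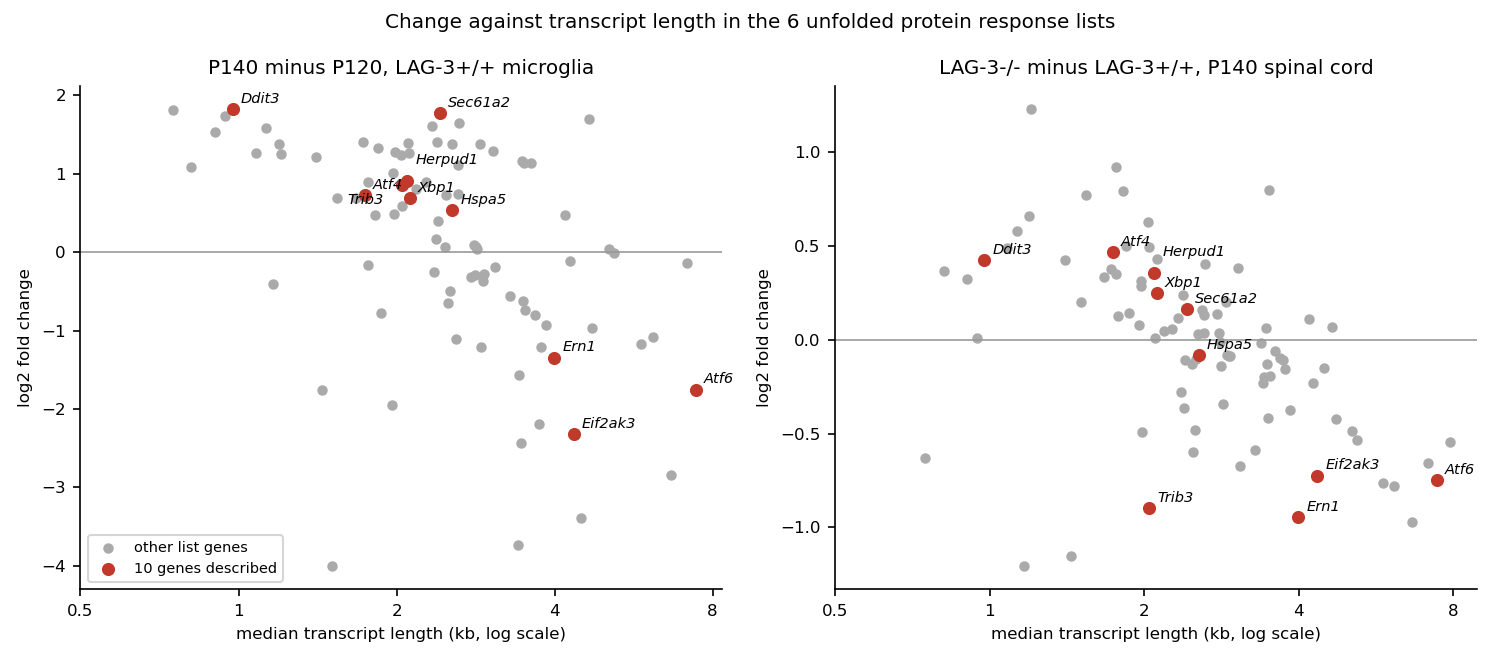
Log2 fold change (vertical axis) against the median length of a gene's annotated transcripts in kb (horizontal axis, log scale) for the genes of 6 lists around the unfolded protein response, from P120 to P140 in LAG-3+/+ microglia (left) and from LAG-3+/+ to LAG-3-/- cord (right). The 10 genes described are in red. Among genes under 2.5 kb, Sec61a2 left out, 35 of 42 lie above 0 on the left and 33 of 43 on the right. Among longer genes 16 of 46 and 13 of 48 do.

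In LAG-3-/- microglia no gene passed between P120 and P140 (0 of 18669 in edgeR, 1658 or 8.88% at an unadjusted p under 0.05, 449 in DESeq2), so a count of the members is not informative there. Herpud1 was 266, 197 and 225 CPM at P120 and 477, 255 and 257 CPM at P140, and Ddit3 was 19.8, 39.5 and 19.96 CPM and then 40.1, 27.8 and 26.4 CPM. Eif2ak3 was 34.3, 29.8 and 43.8 CPM at P120 and 8.36, 32.1 and 43.2 CPM at P140, and Atf6 was 72.0, 58.8 and 57.9 CPM and then 17.2, 41.2 and 63.3 CPM. Replicate 1 of P140 was the highest of its group for Herpud1 and Ddit3 and the lowest for Eif2ak3 and Atf6, in each case nearest to the P140 LAG-3+/+ mean. For Ddit3, however, every P140 LAG-3-/- library lay within the P140 LAG-3+/+ range of 22.9 to 97.1 CPM. Replicate 1 is the library of this group with the low long-transcript measure of -0.52. Without it the Hspa5 change turned from 0.14 to -0.20 and the Eif2ak3 change from -0.37 to 0.07.

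Between genotypes at P120, where 2 genes passed (0.0107% of those tested), none of the 9 did. At P140, where 10.2% of genes passed, again none of the 9 did. The largest differences there, LAG-3-/- minus LAG-3+/+, were those of Eif2ak3 (1.99 ± 0.69, edgeR adjusted p = 0.114) and Atf6 (1.34 ± 0.45, edgeR adjusted p = 0.106). Measured from the median of all genes these went from 1.85 to 1.05 and from 1.19 to 0.31 with the length and GC offsets. Without P140 LAG-3-/- replicate 1 both passed, with Herpud1 at -0.68 as well (edgeR adjusted p = 0.0283, 0.0138 and 0.0429). The Ddit3 difference of -0.92 ± 0.47 did not pass (edgeR adjusted p = 0.258). It was -0.36 without P140 LAG-3+/+ replicate 2, and -1.30 and past the threshold without replicate 1 (edgeR adjusted p = 0.0746). The interaction of genotype and age was -1.58 ± 0.66 for Ddit3, 1.96 ± 0.94 for Eif2ak3 and 1.12 ± 0.62 for Atf6, and none of the 9 passed (edgeR adjusted p from 0.333 to 0.932). A difference in the course of the 9 genes between genotypes was therefore not shown at this replication.

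The wider pathway was described through 6 lists of 91 genes, Sec61a2 left out, of which 88 were tested by age. From P120 to P140 in LAG-3+/+ microglia 31 rose and 18 fell, or 55.7% against 27.4% of all genes, with a median log2 change of 0.43 against -0.22 over all genes. With the length and GC offsets 39 rose and 5 fell, where 3416 of all 18669 genes rose and 1150 fell. The distance of the list's median from that of all genes went from 0.65 to 0.36. It was 0.25 with no filter on counts, and with libraries scaled by their totals alone 19 rose and 27 fell. The translocon list (15 genes) had 8 higher and 1 lower, or 8 and 0 with the offsets. Spcs2, a signal peptidase subunit, was among those that rose (1.65 ± 0.23, edgeR adjusted p = 0.00505), and Spcs3, another, fell (-0.73 ± 0.17, edgeR adjusted p = 0.0152). The ER-associated degradation list (15 genes) had 7 higher and 6 lower, or 8 and 2 with the offsets. In it Selenos rose by 1.59 ± 0.28 and Edem2 by 0.89 ± 0.22, while the ubiquitin ligase Syvn1 fell by 2.43 (edgeR adjusted p = 0.00648, 0.0205 and 0.00861). Of 20 chaperones and foldases 5 were higher and 4 lower, or 8 and 1 with the offsets. Pdia6 and Pdia3, which form disulfide bonds, rose by 1.37 ± 0.30 and 1.16 ± 0.28, and Canx, a lectin chaperone, fell by 1.21 (edgeR adjusted p = 0.0113, 0.0169 and 0.0148).

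Among the 10 transcription factors 5 rose and 2 fell, with Creb3 at 1.33 ± 0.35 beside Ddit3, and Cebpb and Cebpg lower by 4.01 and 0.97 (edgeR adjusted p = 0.0255, 0.022 and 0.0239). Of the 21 ATF4 and CHOP targets tested, 6 rose and 2 fell. Nupr1, a small stress-induced nuclear protein, rose by 1.81 ± 0.29 and Nars1, a tRNA synthetase, by 1.11 ± 0.18, while Slc7a5, an amino acid transporter, fell by 3.74 (edgeR adjusted p = 0.00558, 0.00558 and 0.0101). None of the 7 sensors and eIF2alpha kinases rose and 3 fell. With the length and GC offsets 1 of these 7 rose and 0 fell, and none of the 3 calls was kept. The transcription factors then had 5 higher and 1 lower, and the ATF4 and CHOP targets 9 and 1. At P140 the LAG-3-/- libraries differed from LAG-3+/+ in 15 of 88 genes, 8 higher and 7 lower (17%, against 10.2% of all genes, 7.22% higher and 3% lower), among them Canx (1.17 ± 0.28), Ube2j1 (1.65 ± 0.38) and Slc7a5 (3.04 ± 0.75) higher and Nupr1 (-1.30 ± 0.29) lower (edgeR adjusted p = 0.0465, 0.043, 0.0522 and 0.0383). With length and GC offsets 1 was higher and 7 lower, of which 5 were among the 15, where 338 of all 18669 genes were higher and 662 lower. By library totals alone 17 of the list genes were higher and 3 lower. Without P140 LAG-3-/- replicate 2 or 3, 0 were left, and without replicate 1 there were 40.

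**Figure D3:**
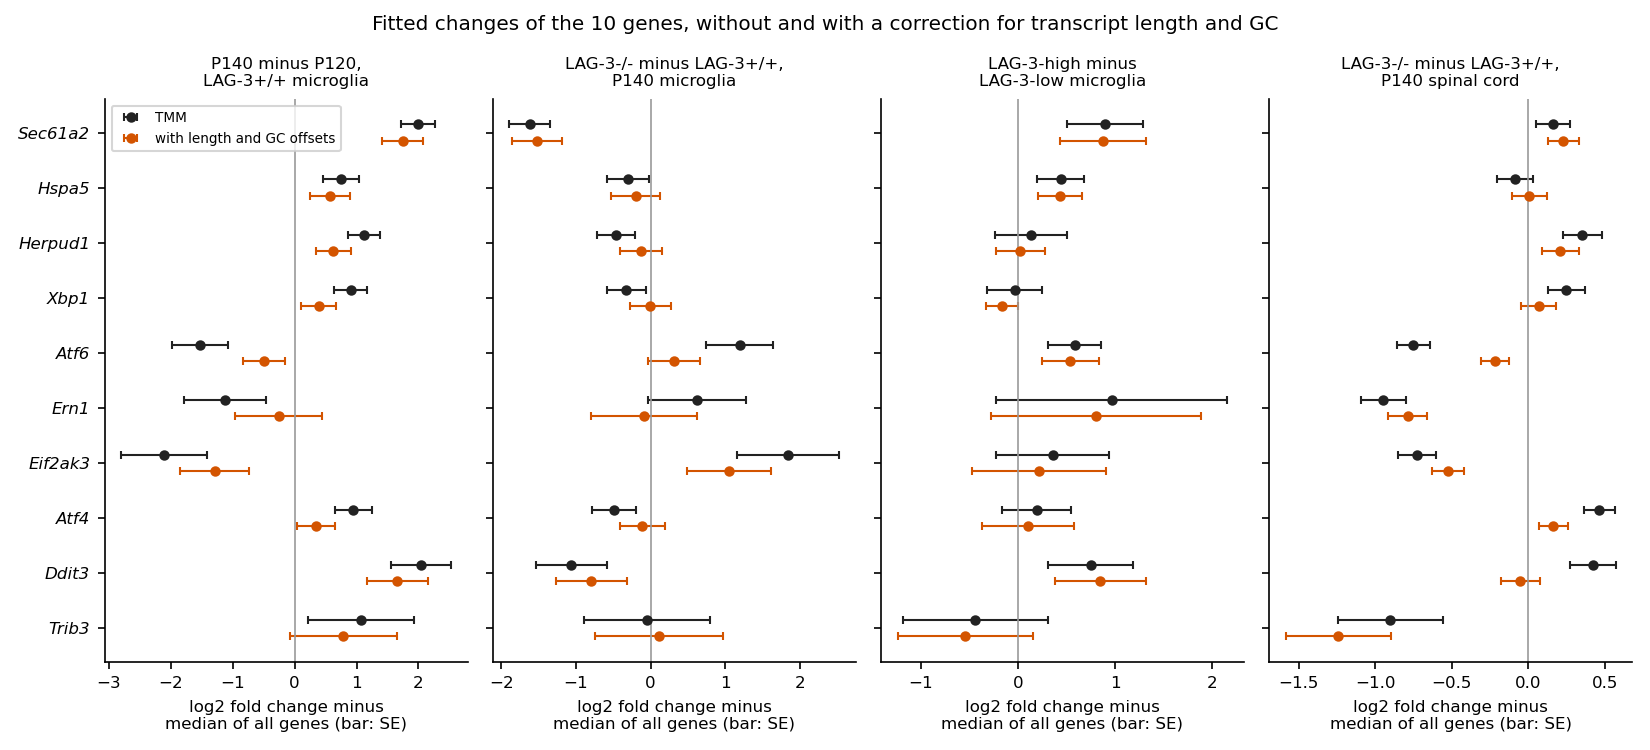
Log2 fold change minus the median of all genes (horizontal axis; the bar is the SE of the fold change) of the 10 genes in 4 comparisons, from the fit with TMM scaling (black) and with added offsets for transcript length and GC content (orange). The sensors Atf6, Ern1 and Eif2ak3 move toward 0 with the offsets in the comparison by age and in the cord, while Sec61a2 stays near 1.99 and 1.74 by age and near 0.16 and 0.23 in the cord.

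The sorted microglia were not used to choose Sec61a2, and its mean was lowest in the LAG-3-low cells. It was 11.4, 16.9, 37.5 and 33.9 CPM in WT, 16.9, 20.8, 8.97, 16.2 and 25.8 CPM in LAG-3-low and 26.5, 39.7, 30.05, 32.0 and 33.5 CPM in LAG-3-high libraries. The 5 LAG-3-high libraries were all above the 5 LAG-3-low libraries, as held for 8.95% of all genes, but by as little as 26.5 against 25.8 CPM, and the log2 difference of 0.87 ± 0.39 did not pass (edgeR adjusted p = 0.382). WT spanned both. Sec61a1 was likewise higher in every LAG-3-high library, at 309, 322, 329, 323 and 289 CPM against 188, 241, 221, 262 and 273 CPM in LAG-3-low, without passing (0.41 ± 0.39, edgeR adjusted p = 0.826). Neutrophil markers summed to 22724 to 66146 CPM in LAG-3-low and at most 7.26 CPM in LAG-3-high libraries. Their part in the differences of these genes was not tested.

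The comparison of the LAG-3-high with the LAG-3-low fraction called no member at an adjusted p under 0.1 and an absolute log2 change over 1, where 3.49% of genes were. Hspa5 was 1807, 1415, 1469, 1091 and 1506 CPM in LAG-3-low and 2335, 1869.9, 1744, 1842 and 1945 CPM in LAG-3-high, with a single LAG-3-low library inside the LAG-3-high range (0.42 ± 0.24, edgeR adjusted p = 0.568). Ddit3 was 24.8, 35.4, 8.65, 12.4 and 26.7 CPM in LAG-3-low and 34.2, 32.4, 35.8, 39.03 and 37.0 CPM in LAG-3-high, again with overlap in 1 LAG-3-low library (0.73 ± 0.44, edgeR adjusted p = 0.597). Of the 87 list genes tested, 2 were called, both higher in LAG-3-high: Ssr4, a subunit of the translocon-associated complex (1.08 ± 0.24, edgeR adjusted p = 0.0239), and Creb3l2, an ER-bound transcription factor (1.02 ± 0.26, edgeR adjusted p = 0.0472). Without the fold minimum, where 4.39% of all genes passed, Canx (0.57 ± 0.14) and Sdf2l1 (0.71 ± 0.20) joined them (edgeR adjusted p = 0.0395 and 0.0691). Both were named after their values were seen.

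The lists together leaned to the LAG-3-high side by small steps, but not evenly. A log2 difference above 0 was found in 19 of the 20 chaperones and foldases and in 12 of the 20 ATF4 and CHOP targets (60%, median 0.15). Of the 87 genes, 72 had a log2 difference above 0 (82.8%, against 48.6% of all genes), 29 did not overlap and were higher (33.3%, against 8.95%), and 2 did not overlap and were lower (2.3%, against 6.52%). The median was 0.35 against -0.02 over all genes. When libraries were scaled by their totals alone, the median of all genes fell by 0.38 and that of the lists was -0.02, which kept their distance at 0.38. LAG-3-low libraries carried 22724 to 66146 CPM of neutrophil markers and LAG-3-high libraries at most 7.26 CPM, and the part of this difference in the values of the members and the lists was not tested.

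**Figure D4:**
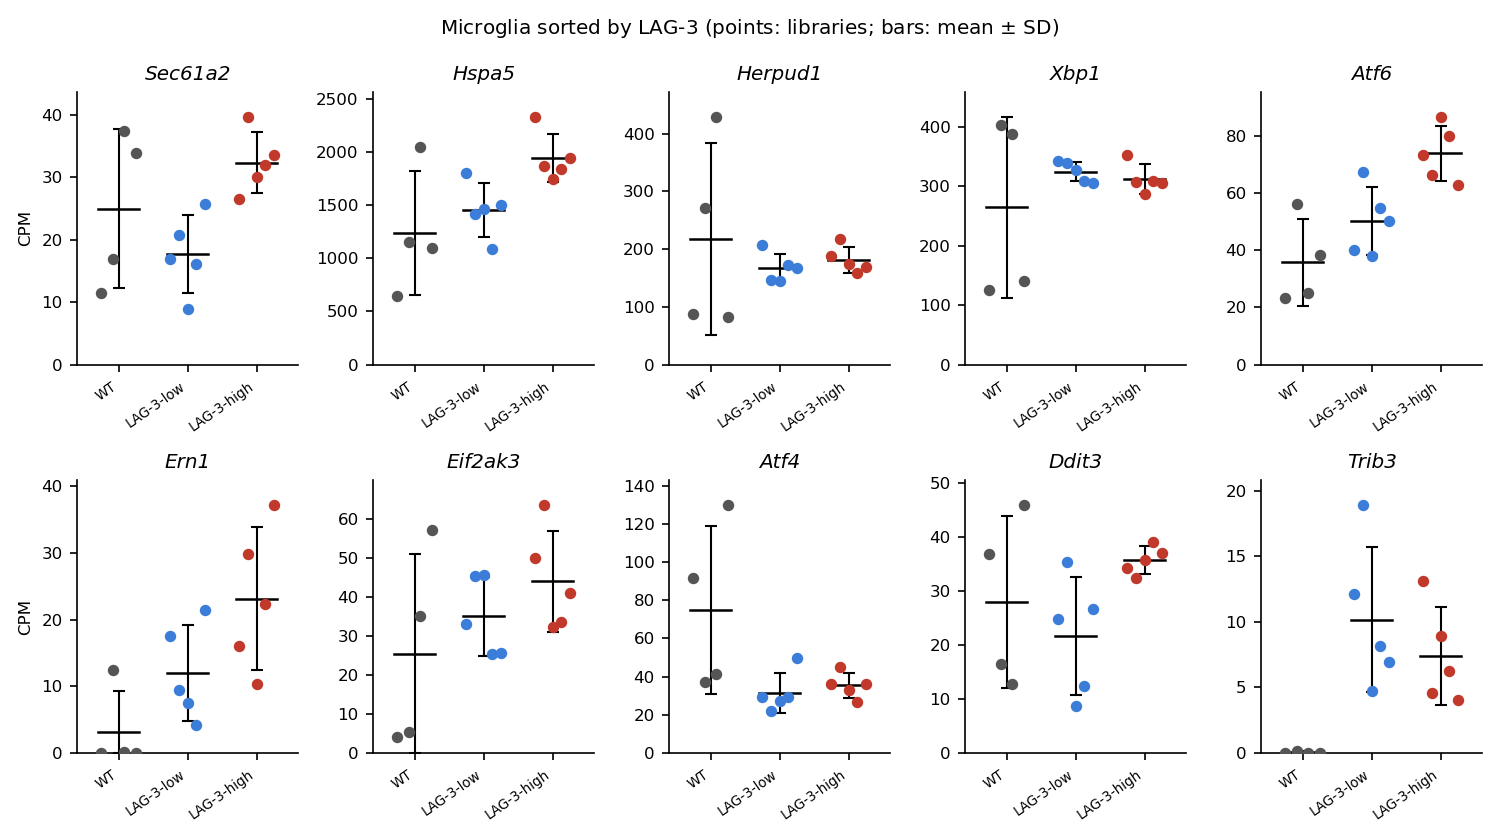
Level of each of the 10 genes in CPM (vertical axis, from 0, a scale of its own for each gene) in 14 libraries of sorted microglia (4 from WT, 5 of the LAG-3-low and 5 of the LAG-3-high fraction), with points for libraries, a line for the mean and a bar of 1 SD. Trib3 is at or near 0 in WT and at 4.02 to 18.9 CPM in both SOD1G93A groups, and the WT libraries are widely spread for most genes.

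Trib3 was near 0 in WT and detected in every library of SOD1G93A microglia. It was 0, 0.174, 0 and 0 CPM in WT, with 2 counts in all, 12.1, 18.9, 4.75, 8.14 and 6.97 CPM in LAG-3-low and 13.1, 4.60, 8.93, 6.24 and 4.02 CPM in LAG-3-high. The groups were far apart from WT and overlapped each other. Against WT, summed counts of Trib3 were 304-fold higher in LAG-3-low, with a 95% counting interval of 83.9 to 2512, and 247-fold higher in LAG-3-high, with an interval of 68.2 to 2047. Non-overlap in this direction held for 9.78% and 12.4% of all genes. Trib3 passed the count filter through the SOD1G93A groups, where it is high, so the fitted test against WT is not given. The intervals cover counting error only, and both comparisons share the 4 WT libraries. In the comparison by age, Trib3 was between 0.872 and 9.44 CPM in all 12 SOD1G93A libraries.

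Trib3 left out, Atf4 alone of the members was called between LAG-3-low and WT, where 21.9% of genes were. Atf4 and Atf6 were called between LAG-3-high and WT, where 27% of genes were. Atf4 was 91.7, 37.4, 41.5 and 130 CPM in WT, 29.3, 22.1, 27.2, 29.2 and 49.5 CPM in LAG-3-low and 35.9, 45.1, 33.0, 26.7 and 36.1 CPM in LAG-3-high. Its log2 differences from WT were -1.25 ± 0.38 and -1.09 ± 0.38 (edgeR adjusted p = 0.0361 and 0.0526). They rested on WT replicates 1 and 4, the libraries poor in long transcripts, and were -0.25 and -0.12 without these (edgeR adjusted p = 0.616 and 0.822, an alternative chosen after the data were seen). Without WT replicate 4 alone neither was called (edgeR adjusted p = 0.105 and 0.17), and without WT replicate 1 or LAG-3-high replicate 4 alone the LAG-3-high difference was not (edgeR adjusted p = 0.106 and 0.112). With the length and GC offsets the distances from the median of all genes were -1.75 and -1.57, against -1.29 and -1.004 without them, and both were called (edgeR adjusted p = 0.00346 and 0.00618). Atf6 was 23.4, 56.0, 25.1 and 38.3 CPM in WT, 40.2, 67.3, 38.03, 54.7 and 50.2 CPM in LAG-3-low and 73.2, 66.3, 86.7, 80.0 and 62.9 CPM in LAG-3-high. All LAG-3-high libraries were above all WT libraries (1.05 ± 0.30, edgeR adjusted p = 0.0227), and the difference went under the fold minimum without WT replicate 1 (0.88), without WT replicate 3 (0.93), without LAG-3-high replicate 3 (0.99) and without WT replicates 1 and 4 (0.88). With length and GC offsets, which moved the median of all genes by -0.56, the call was lost (edgeR adjusted p = 0.622) and the distance from that median went from 1.13 to 0.87.

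Ern1 was 0, 12.4, 0.113 and 0.0634 CPM in WT, 17.6, 9.44, 7.46, 4.26 and 21.5 CPM in LAG-3-low and 16.1, 29.8, 10.3, 22.4 and 37.1 CPM in LAG-3-high. WT replicate 2, the library with the fewest counts, lay within the other groups, and neither difference from WT was called (1.95 ± 1.33 and 2.89 ± 1.39, edgeR adjusted p = 0.339 and 0.15). Without that library Ern1 would pass the count filter through the groups where it is high, so no test without it is given. Eif2ak3 was 4.18, 5.40, 35.3 and 57.3 CPM in WT and 25.4 to 63.6 CPM in the other 10 libraries, and was not called, except for LAG-3-high against WT without WT replicate 4 (1.57, edgeR adjusted p = 0.086). Hspa5 was 649, 1151, 2047 and 1101 CPM in WT, with 0.65 ± 0.26 for LAG-3-high against WT (edgeR adjusted p = 0.0843, under the fold minimum), or 1.03 and called without WT replicate 3 (edgeR adjusted p = 0.00446). Xbp1 (125, 404, 389 and 141 CPM in WT) and Herpud1 (87.3, 272, 429 and 81.5 CPM in WT) varied within WT by more than they differed between groups, with the low values in replicates 1 and 4.

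Across the lists, the LAG-3-low fraction had 10 of 87 genes above and 7 below WT by the call rule (19.5%, against 21.9% of all genes), and the LAG-3-high fraction had 21 above and 5 below (29.9%, against 27%). By direction the LAG-3-high calls leaned higher, since 12.1% of all genes were called higher and 14.9% lower. In that comparison 69 of the 87 genes had a log2 difference above 0 (79.3%, against 47.7% of all genes), with a median of 0.70 against -0.08. The groups did not overlap in 27 genes that were higher (31%, against 12.4%) and in 3 that were lower (3.45%, against 8.55%). With length and GC offsets the split was 7 higher and 12 lower for LAG-3-high and 5 higher and 26 lower for LAG-3-low. Of all 16508 genes, 1376 were then higher and 4240 lower for LAG-3-high, and 1318 and 4511 for LAG-3-low. The distance of the median from that of all genes went from 0.79 to 0.52 for LAG-3-high and from 0.26 to 0.06 for LAG-3-low. By library totals alone LAG-3-high had 10 higher and 7 lower. Of the genes called higher, 4 in LAG-3-low and 3 in LAG-3-high were under the minimum of the count filter in every WT library. Among the genes called Atf3, a stress-induced transcription factor, was higher by 1.91 ± 0.41 and 2.69 ± 0.43, Atf6b by 2.01 ± 0.42 and 2.27 ± 0.42, and the chaperone Hyou1 by 3.01 ± 0.64 and 3.59 ± 0.66, all 6 called (edgeR adjusted p from 0.000709 to 0.00766). Nupr1 was lower by 1.87 and 1.77 (edgeR adjusted p = 0.00643 and 0.00642). Chac1, an ATF4 target that degrades glutathione, had 0 counts in WT, and summed over each group it was at least 113-fold higher in LAG-3-low and at least 32.9-fold higher in LAG-3-high, with 3 counts over the 4 WT libraries as the floor. Gdf15, a secreted stress factor, was likewise at 0 in WT and at least 40.9-fold and 22.3-fold higher.

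In whole spinal cord none of the 10 genes was called at an adjusted p under 0.1 and an absolute log2 change over 1, where 7.52% of genes were. By adjusted p alone 47.1% of all genes passed, 23.1% higher and 23.9% lower, and 7 of the 9 did, 3 higher and 4 lower. Sec61a2, which was not chosen on the cord, was 38.1, 39.6 and 34.0 CPM in LAG-3+/+ and 42.4, 44.6 and 38.03 CPM in LAG-3-/- cord, with overlap, and did not pass (0.16 ± 0.11, edgeR adjusted p = 0.256). Sec61a1 was 78.3, 78.7 and 78.8 CPM against 78.9, 69.9 and 70.9 CPM (-0.10 ± 0.10, edgeR adjusted p = 0.429). Hspa5 was 260.3, 306 and 294 CPM against 249.7, 276 and 285 CPM (-0.08 ± 0.12, edgeR adjusted p = 0.606), and Xbp1 was 44.7, 59.1 and 56.8 CPM against 58.9, 68.4 and 63.5 CPM (0.25 ± 0.12, edgeR adjusted p = 0.128; 0.0983 without LAG-3-/- replicate 1).

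The 3 sensors were lower in LAG-3-/- cord, each without overlap. Ern1 was 21.1, 19.0 and 19.3 CPM in LAG-3+/+ and 8.98, 9.47 and 12.4 CPM in LAG-3-/- (-0.94 ± 0.14, edgeR adjusted p = 0.000747). Atf6 was 54.9, 58.9 and 62.1 CPM against 31.7, 34.0 and 38.98 CPM (-0.75 ± 0.11, edgeR adjusted p = 0.000621), and Eif2ak3 was 33.4, 41.4 and 37.5 CPM against 20.5, 21.9 and 25.6 CPM (-0.72 ± 0.12, edgeR adjusted p = 0.00125). Trib3 was 3.55, 3.57 and 4.37 CPM against 3.43, 1.14 and 1.70 CPM, with the LAG-3-/- library nearest to LAG-3+/+ just below it (-0.90 ± 0.34, edgeR adjusted p = 0.0616). Without that library, replicate 1, the difference was -1.44 and was called (edgeR adjusted p = 0.00203), and without replicate 3 of LAG-3-/- Ern1 was called as well, at -1.12 (edgeR adjusted p = 0.000495). Without any of the other 5 libraries Trib3 had an adjusted p over 0.1 (edgeR, 0.106 to 0.178).

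Atf4, Ddit3 and Herpud1 were higher in LAG-3-/- cord without overlap. Atf4 was 85.1, 86.1 and 88.1 CPM in LAG-3+/+ and 128, 122 and 108 CPM in LAG-3-/- (0.47 ± 0.10, edgeR adjusted p = 0.00471). Ddit3 was 27.9, 20.5 and 27.1 CPM against 39.8, 31.6 and 30.1 CPM (0.42 ± 0.15, edgeR adjusted p = 0.0402), and Herpud1 was 46.4, 62.3 and 59.9 CPM against 65.7, 77.2 and 72.7 CPM (0.36 ± 0.13, edgeR adjusted p = 0.0428). Ddit3 missed the threshold without LAG-3+/+ replicate 2 or LAG-3-/- replicate 1 (edgeR adjusted p = 0.149 and 0.124), and Herpud1 without LAG-3+/+ replicate 1 or LAG-3-/- replicate 2 (edgeR adjusted p = 0.126 and 0.143). Non-overlap in the higher direction held for 25.5% and in the lower for 26.1% of all genes, so it sets none of these members apart. The fitted changes with length and GC offsets are given here as such, not as distances from the median of all genes, which was 0.04. Ern1 stayed at -0.75, Eif2ak3 at -0.49 and Trib3 at -1.21 (edgeR adjusted p = 0.00266, 0.00914 and 0.0307), while Atf6 was -0.18, Atf4 0.20, Herpud1 0.25 and Ddit3 -0.02 (edgeR adjusted p = 0.178, 0.153, 0.168 and 0.946). Mitochondrial transcripts were 4.6 to 6.78% of counts in LAG-3+/+ and 7.99 to 14.8% in LAG-3-/- cord, summed oligodendrocyte markers 17930 to 19610 CPM against 24919 to 34769 CPM, and astrocyte markers 15093 to 16937 CPM against 9881 to 14963 CPM, none of them overlapping. Their part in these differences was not tested.

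**Figure D5:**
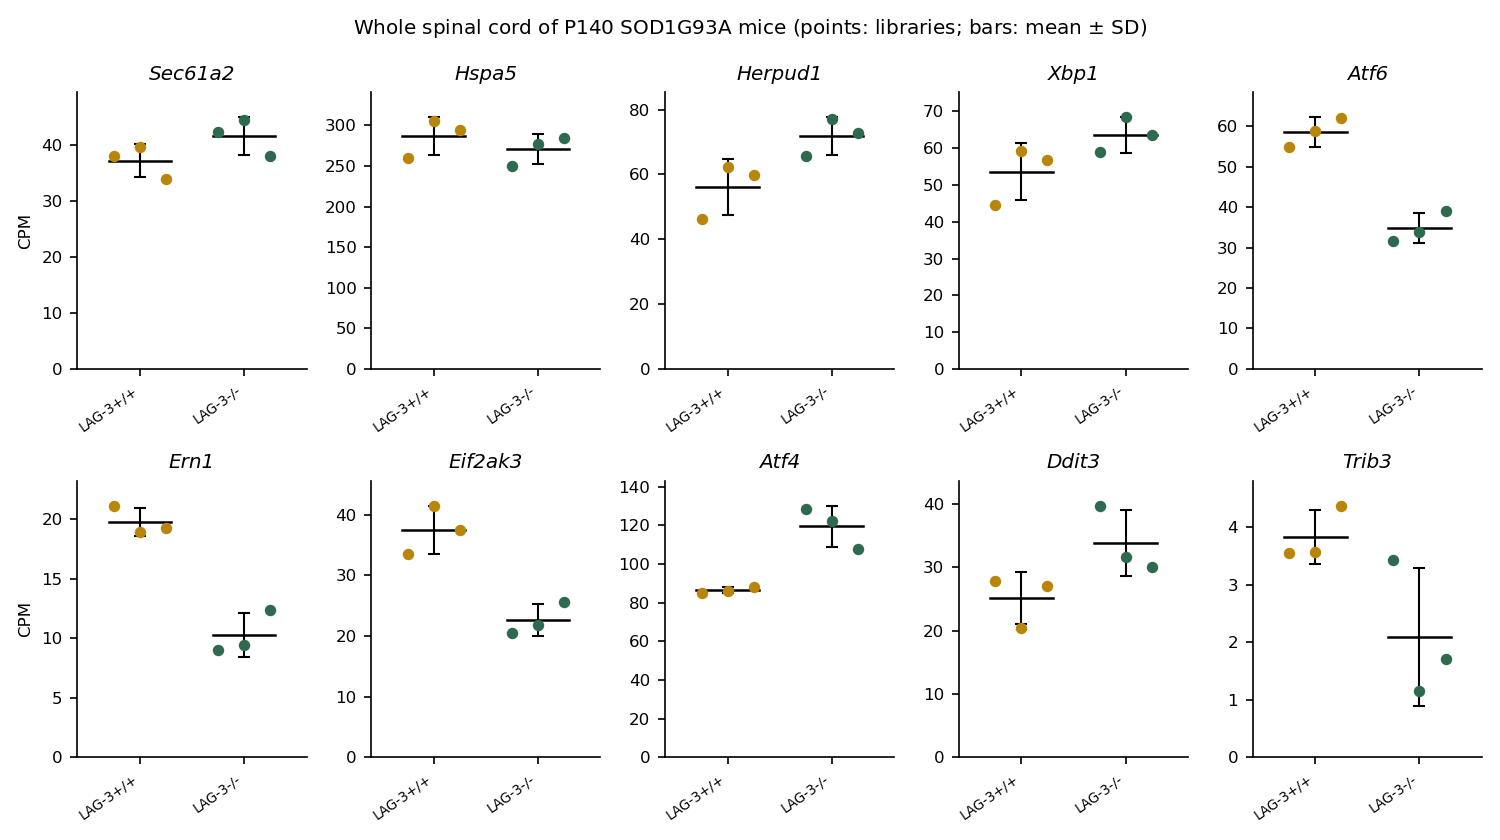
Level of each of the 10 genes in CPM (vertical axis, from 0, a scale of its own for each gene) in 3 LAG-3+/+ and 3 LAG-3-/- libraries of P140 SOD1G93A spinal cord, with points for libraries, a line for the mean and a bar of 1 SD. Atf6, Ern1, Eif2ak3 and Trib3 are lower and Atf4, Ddit3 and Herpud1 higher in every LAG-3-/- library, and Sec61a2, Hspa5 and Xbp1 overlap.

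Of the 91 list genes, all tested in cord, 3 were called: Sec61b higher (1.23 ± 0.18), and the eIF2alpha kinase Eif2ak2 (-1.21 ± 0.15) and Gdf15 (-1.15 ± 0.41) lower (edgeR adjusted p = 0.000617, 0.000347 and 0.0469). That is 3.3%, against 7.52% of all genes. Without the fold minimum 24 were higher and 23 lower, with a median of 0.01 against 0.00 over all genes. By adjusted p alone the sensor list had 5 of 7 lower and none higher, with a median of -0.72, where 23.9% of all genes were lower. The translocon list had 8 of 15 higher and 2 lower, with a median of 0.37, where 23.1% of all genes were higher. With length and GC offsets the sensor list had 3 lower and a median of -0.18. The translocon list then had 7 higher and none lower and a median of 0.18. All lists together had 15 higher and 16 lower, where 2845 of all 17702 genes were higher and 2470 lower.

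The genes whose log2 CPM followed Sec61a2 most closely differed from table to table. In the 14 sorted libraries they were Dcxr (r = 0.871), Dnajb2 (r = 0.871) and Retreg2 (r = 0.863), in the 12 libraries by age Hsd3b7 (r = 0.948), Thap7 (r = 0.938) and Nrbp1 (r = 0.933), and in the 6 cord libraries Glrx2 (r = 0.965), Armt1 (r = 0.95) and Timm9 (r = 0.946). For Hspa5 they were Abhd4 (r = 0.951), Pacc1 (r = 0.94) and Gorasp2 (r = 0.934) in the sorted libraries and Naa35 (r = 0.937), Galm (r = 0.933) and Sap18 (r = 0.883) by age. In the cord they were Fam168b (r = 0.995), Zfp503 (r = 0.994) and Amigo1 (r = 0.993). These are the highest Pearson values among 8674 to 10641 genes over libraries that share group differences, depth and coverage, and they are given as a description.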

How the data were processed

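Microglia sorted from lumbar spinal cord (26 libraries) and whole lumbar cord (6 libraries) were profiled by RNA-seq. Per the labels and the study's methods, the authors trimmed reads with Trim Galore 0.6.7, quantified them with Salmon 1.9.0 against GRCm39 and summarised them to genes with tximport in R 4.2.1, and they deposited 3 tables of estimated counts. The annotation release is not given in the sources used here, and the labels and methods name different library kits for the cord. The estimated counts were rounded to whole numbers here.

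Each table was fitted on its own in edgeR 4.0.16 (R 4.3.3; robust quasi-likelihood, TMM, filterByExpr with a minimum count of 10, Benjamini-Hochberg over all genes tested). Calls needed an adjusted p under 0.1 in the table by age, and in the other tables also a log2 change over 1 in size. CPM used TMM library sizes, and an SE is the log2 change divided by the root of its F. Lengths, positions and shared 31-base words came from the GENCODE annotation of GRCm39 and promoters from RefSeq (GRCm38.p6, 9 of 10 genes matched). Offsets for length and GC content were natural splines of 5 degrees of freedom per library. Tests with these offsets are against 0 and not against the median of all genes, which the offsets move. Estimates of reads shared between overlapping genes, and uneven coverage of long transcripts, can both move a gene's count. The statistics were tested on simulated data.

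The members and lists were chosen with earlier results of these data known. Named genes were the 10 members, Sec61a1, up to 2 genes with the smallest adjusted p per list, comparison and direction, and the 3 genes most correlated with Sec61a2 or Hspa5 (mean of at least 10 CPM, prior count 2). A gene that this rule names is not reported here. Alternatives were DESeq2 1.42.0, DESeq2-type size factors, no TMM, other filters, only the groups compared, a replicate block, the offsets and omission of each library. Deviations of same-numbered libraries correlated at -0.119 to 0.0674 over all pairs of groups. In the fractions low and high in LAG-3, the 5 same-numbered pairs ran from -0.00134 to 0.0674 (median 0.0195). The 20 pairs of unlike number in these fractions ran from -0.0408 to 0.0352 (median -0.0108). All of these values are small, and whether the fractions were paired cannot be told from them.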

Additional observations from a re-analysis of the deposited data

Results flagged for a closer look

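Atf4 stood at 49.5 CPM in LAG-3-low replicate 5, far from the other 4 libraries of the group at 22.1 to 29.3 CPM (gap over range 0.737, critical value 0.71). Ern1 stood at 12.4 CPM in WT replicate 2 against 0 to 0.113 CPM in the other WT libraries (0.991, critical value 0.829). Trib3 stood at 0.174 CPM in the same library, from 2 counts, against 0 in the others (1, critical value 0.829). With the others at 0 this ratio is 1 for any value above 0, so the Trib3 flag carries no information. The flags are 3 of the 30 sets of libraries of 1 gene in 1 group that were looked at, where chance marks about 1 in 20. That rate does not apply to counts at the floor.

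The change of Sec61a2 with age differed between the genotypes by -2.19 on the log2 scale, the value for which the gene was chosen. Every P140 LAG-3+/+ library was above every P120 LAG-3+/+ library, as held for 16.8% of all genes. In LAG-3-/- the mean was 45.4 CPM at P120 and 34.0 CPM at P140.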

How the results depend on the processing

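Counts of called genes in the 6 lists depended on the settings as follows, with the range over fits that omit 1 library each. LAG-3-high against LAG-3-low gave 2, 1 with DESeq2-type size factors, length and GC offsets or no filter, 0 without TMM and 4 without the fold minimum (1 to 3 on omission). LAG-3-low against WT gave 17, 31 with offsets and 11 from the 2 groups alone (13 to 28, the highest without WT replicate 2). LAG-3-high against WT gave 26, 17 without TMM and 16 from the 2 groups alone (18 to 31). P140 against P120 in LAG-3+/+ gave 49 (37 to 52), and in LAG-3-/- 0, or 1 with DESeq2. LAG-3-/- against LAG-3+/+ gave 0 at P120, and at P140 15, 31 with DESeq2, 8 with offsets, the fold minimum or the replicate block, and 0 from the 2 groups alone (0 to 40). The interaction gave 0 and with DESeq2 10 (0 to 19). The cord gave 3, 5 with offsets, 6 without TMM and 47 without the fold minimum (2 to 6). The cause was not tested.

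Signs of single genes turned as follows, none of them called in the fit reported. Without TMM, which moves the median of all genes, they were Atf4 -0.22, Eif2ak3 -0.040 and Herpud1 -0.27 (LAG-3-high against low), Xbp1 -0.12 (high against WT), Hspa5 -0.17, Ddit3 -0.026 and Sec61a1 -0.045 (age in LAG-3-/-), Hspa5 0.12 and Xbp1 0.11 (genotype at P140), and Atf4 0.035 (interaction). Measured from that median none of these turned. With offsets, which moved the median of all genes by -0.73 and -0.56 against WT, 0.59 with age in LAG-3+/+, -0.40 between genotypes at P140 and -0.49 in the interaction, they were Hspa5 -0.66, Xbp1 -0.54, Atf6 -0.45, Eif2ak3 -1.23 and Sec61a1 -0.18 (low against WT), Sec61a2 -0.45, Hspa5 -0.083, Ddit3 -0.050, Xbp1 -0.56 and Eif2ak3 -0.87 (high against WT), Ern1 0.11 (age in LAG-3+/+), Ern1 -0.34 and Trib3 -0.15 (genotype at P140), Atf6 -0.19 and Ern1 -0.84 (interaction). Cord values were Hspa5 0.044 and Ddit3 -0.016, the latter past the adjusted p alone before. Measured from the median, Eif2ak3 turned in both comparisons with WT (-0.54 and -0.23), as did Ern1 (-0.084) and Trib3 (0.11) at P140, Ern1 in the interaction (-0.53) and Hspa5 (0.0069) and Ddit3 (-0.052) in the cord. The others kept their sign, with Hspa5 at 0.037, Xbp1 at 0.16, Atf6 at 0.24 and Sec61a1 at 0.51 for low against WT. Without WT replicates 1 and 4, chosen after seeing the data, they were Hspa5 -0.034, Ddit3 0.65 and Xbp1 -0.21 (low against WT) and Xbp1 -0.31 (high against WT). With the replicate block they were Eif2ak3 -0.032 (genotype at P120) and Trib3 0.0040 (interaction), and Trib3 at P140 was -0.0055 with DESeq2 and -0.0061 with its size factors. Whether numbers shared by libraries mark a pairing cannot be told.

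On omission of 1 library the changes with age in LAG-3-/- ranged from -0.83 to 0.066 for Eif2ak3 and from -0.20 to 0.34 for Hspa5. Genotype differences at P120 ranged from -0.35 to 0.061 for Atf4, -0.090 to 0.49 for Atf6, -0.14 to 0.15 for Eif2ak3, -0.064 to 0.21 for Herpud1 and -0.41 to 0.81 for Trib3, and at P140 from -0.50 to 0.042 for Hspa5, -0.41 to 0.61 for Trib3 and -0.51 to 0.036 for Xbp1. Interactions ranged from -0.41 to 0.084 for Atf4, -0.24 to 1.47 for Ern1 and -0.90 to 0.51 for Trib3. Herpud1 ranged from -0.53 to 0.32 in LAG-3-high and from -0.65 to 0.19 in LAG-3-low against WT.

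Low counts limit the WT values of Trib3 and Ern1, which rest on 2 counts and mainly on 1 library.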
